A study of Bos taurus with 9 samples.

Results

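A set of 20 genes was silent in bovine ear fibroblasts (BEFs) and expressed in the chemically induced adipocyte-like cells (CiADCs) on both days of sampling. The members were chosen by their counts. A member had at most 1 count in each of the 3 BEFs samples and at least 50 counts in each of the 6 CiADCs samples. Its mean CPM (counts scaled to 1000000 counts of the library) on day 3 was between 0.5 and 2 times that on day 6. Of 21512 genes in the table, 6182 met the limit for BEFs. Among these, 6105 stayed under 50 counts in every CiADCs sample, 3749 of them with no count in any sample. Another 49 reached 50 counts in 1 to 5 of the CiADCs samples and 28 in all 6. Of the 28, 20 met the limits on the ratio of the days. Of the rest, 4 were more than 2 times higher on day 3 and 4 were more than 2 times higher on day 6.

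BEFs were wild-type fibroblasts grown from bovine ear margin tissue and sampled on day 0 without compounds. CiADCs were such cells after 3 days (CiADCs-3d) or 6 days (CiADCs-6d) in N2B27 medium that held 3 compounds. These were TTNPB, an agonist of the retinoic acid receptors given at 1 µM, VPA, an inhibitor of histone deacetylases given at 500 µg/mL, and RepSox, an inhibitor of TGF-beta receptor signalling given at 10 µM. There were 3 samples in each group, 9 in all, and library totals ran from 18509244 to 24071580 counts. An untreated culture of day 3 or day 6 was not part of these samples, and effects of the compounds, of the medium and of time cannot be told apart. The sources do not say whether samples of a group came from separate animals or inductions, and p-values may then measure technical spread alone.

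The labelled cell types were compared with their markers. The 22 fibroblast markers summed to between 118500 and 124000 CPM in BEFs. The sums were between 67100 and 82350 CPM in CiADCs-3d and between 51920 and 63440 CPM in CiADCs-6d. Of the 22, 4 were higher and 11 lower on day 3, and 2 were higher and 15 lower on day 6, at an adjusted p under 0.05 alone. COL1A1 fell from 21850 CPM to 6170 and 2805 CPM, while PDGFRA had 721 CPM in BEFs and 1356 and 834 CPM in CiADCs. Of 17 mature adipocyte markers tested, 9 rose and 4 fell by day 3, and 9 rose and 3 fell by day 6, at an adjusted p under 0.05 alone. By that measure 30.9% of the 14020 genes tested were higher and 29.1% lower on day 3, and 35.6% and 31.9% on day 6. ACSL1, which activates fatty acids, rose from 41.4 CPM to 277 and 236 CPM, and PNPLA2, a triglyceride lipase, from 16.6 CPM to 74.2 and 91.5 CPM. AGPAT2, an enzyme of triglyceride synthesis, fell from 36.5 CPM to 6.78 and 6.74 CPM. ADIPOQ, the gene of adiponectin, rose from 1.13 CPM in BEFs to 4.85 and 4.02 CPM on the 2 days (edgeR quasi-likelihood test with Benjamini-Hochberg adjustment, adjusted p = 0.000181 and 0.000485). FABP4, a fatty acid carrier of fat cells, fell from 10.8 CPM to 5.36 and 0.874 CPM (adjusted p = 0.0305 and 1.8e-05). LGALS12 had no count in any sample.

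As background, genes of other lineages are kept unexpressed in a differentiated cell in part by deacetylated histones and repressive complexes. Retinoic acid receptors sit on response elements of their target genes and switch from repression to activation when they bind a ligand. Neither was measured in these samples. The members belong to several functional groups, which are retinoic acid breakdown, transcription factors, calgranulins and other genes of inflammation and interferon responses, metal binding, membrane transport, metabolism and signalling.

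Since the counts in all 3 groups chose the members, the differences between groups are described without a test. In every member each CiADCs sample lay above each BEFs sample, as the rule fixes. All 20 passed the filter on low counts and were called higher on both days. This also follows from the rule, so nothing is read from it. Among the 14020 genes tested, 18.2% were called higher on day 3 and 21.9% on day 6, at an adjusted p under 0.05 with a log2 fold change of 1 or more. Called lower were 9.94% and 13.4%. In BEFs, 9 members had no count, 8 had 1 count in 1 sample and 3 had 2 counts over the group. In CiADCs the mean over members ran from 4.39 to 76.2 CPM on day 3, with a median of 8.71, and from 3.86 to 75.5 CPM on day 6, with a median of 8.6. In bulk samples, fewer cells of a type and less RNA per cell cannot be told apart, so these means do not show how many cells expressed a gene.

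**Figure D1:**
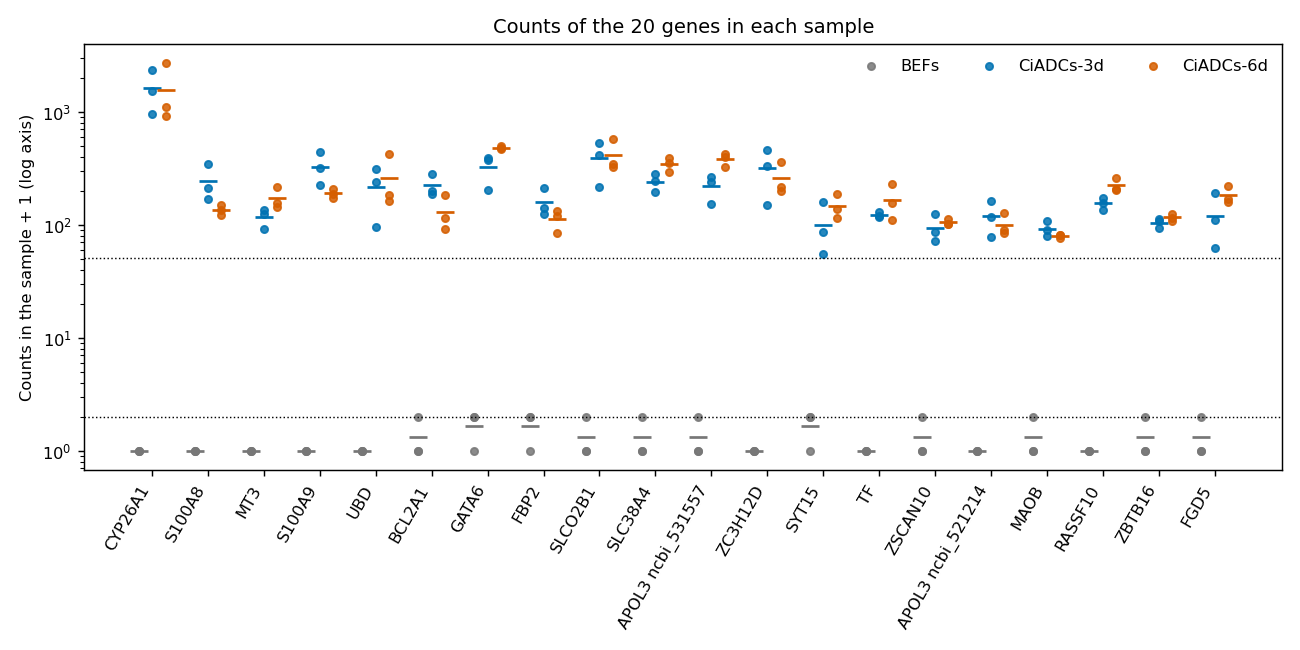
Counts + 1 of each member in each of the 9 samples on a log axis, ordered by mean FPKM, with points for samples and a short bar for the group mean. The dotted lines mark 1 and 50 counts, the limits of the choice. The BEFs samples lie at 0 or 1 count and the CiADCs samples between 54 and 2679 counts.

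Levels of different genes were compared per length, as the FPKM deposited by the authors (fragments scaled to gene length and library size). CYP26A1 stood first with 44.1 FPKM over the 6 CiADCs samples, above 90.8% of the genes with an FPKM over 0. S100A8 followed with 23.2 FPKM, MT3 with 17.9, S100A9 with 16 and UBD with 10.5. The median member had 4.26 FPKM, and the lowest was FGD5 with 1.23 FPKM. Neighbours in this order could not be separated. On day 6, for example, MT3 had 21.3 ± 3.73 FPKM (SD, n = 3) and S100A8 16.5 ± 0.924 FPKM, while on day 3 MT3 had 14.5 ± 4.13 FPKM and S100A8 29.9 ± 14.8 FPKM.

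CYP26A1 (ncbi_539047) encodes a cytochrome P450 that breaks down retinoic acid, and it is a well-known target of the retinoic acid receptors. It had no count in BEFs. In CiADCs-3d the 3 samples had 51.8, 112.5 and 64.4 CPM, and in CiADCs-6d they had 125.5, 51.8 and 49.2 CPM. The days overlapped, and the sample with the highest value on day 6 was the one numbered 1, while the sample numbered 1 on day 3 was the lowest of its day. Against a floor of 3 counts per library, CYP26A1 was at least 582-fold higher on day 3 and at least 576.8-fold higher on day 6.

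Other genes of retinoid metabolism were read from a list of 30 genes, of which 24 were tested. On each day 15 of them were higher and 5 lower than in BEFs by adjusted p alone. By that measure 30.9% of all genes tested were higher and 29.1% lower on day 3, and 35.6% and 31.9% on day 6. Among the higher were CYP26A1, which the rule chose, and DHRS9 and STRA6, at 0 and 0.332 CPM in BEFs. These genes passed the filter only through CiADCs, so their direction was set in advance. The lower ones on both days were RARA, RBP4, RDH10, ALDH1A3 and RARRES1. The median log2 fold change of the list was 1.57 on day 3 and 1.48 on day 6, against 0.0060 and 0.0328 over all genes tested. These medians did not change with CYP26A1 and DHRS9, which had no count in BEFs, at their bounds. CYP26B1, the other CYP26 enzyme tested, was already present in BEFs at 13.2 ± 4.9 CPM and rose to 4143 ± 324 CPM on day 3 and 4658 ± 120 CPM on day 6 (log2 fold changes 8.28 and 8.43, standard errors 0.26, edgeR adjusted p = 1.71e-10 and 1.6e-10). RARB, a retinoic acid receptor that is itself induced by its ligand, rose from 0.69 to 194 and 220 CPM (log2 fold changes 8.09 and 8.26). TGM2, a transglutaminase, rose from 3.63 to 1698 and 1337 CPM (log2 fold changes 8.85 and 8.49). CYP26C1, which lies next to CYP26A1, had 0.106 CPM on day 3 and 0.085 CPM on day 6 and did not pass the filter. RXRG, HOXB1 and CDX1 had no count in any sample.

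GATA6, ZBTB16 and ZSCAN10 encode transcription factors, and their levels differed in spread. GATA6 (ncbi_654400), a zinc finger factor of heart and endoderm, had 2 counts over BEFs. Its CiADCs-3d samples had 20.8, 9.82 and 15.8 CPM and its CiADCs-6d samples 22.4, 23.4 and 25 CPM. All samples of day 6 lay above all samples of day 3. GATA6 was 527-fold higher on day 3 (95% counting interval 145 to 4354) and 810-fold higher on day 6 (224 to 6698). These exact intervals cover counting error only.

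ZBTB16 (ncbi_534401), also known as PLZF, is a BTB zinc finger repressor. It was the steadiest member, with 5.02, 5.10 and 4.73 CPM on day 3 and 5.81, 5.37 and 5.79 CPM on day 6. The coefficient of variation was 3.9% on day 3 and 4.4% on day 6, below the 9.82% and 9.31% that counting alone would give. The days did not overlap, although the means were 4.95 ± 0.193 and 5.66 ± 0.249 CPM. ZSCAN10 (ncbi_538853), a zinc finger factor known from embryonic stem cells, had 4.39 ± 0.716 CPM on day 3 and 5.12 ± 0.322 CPM on day 6. Its samples ran from 3.84 to 5.36 CPM and the days overlapped. Of the 16 germ line markers, 15 stayed under 1 CPM in every sample, and the list summed to between 0.915 and 1.54 CPM in BEFs and between 1.78 and 2.5 CPM in CiADCs-6d. SYCP3, of the meiotic synaptonemal complex, was the 1 marker tested, with 0.575 CPM in BEFs and 1.33 CPM on day 6. It passed the filter only through CiADCs, so its direction was set in advance.

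Relatives of GATA6 and ZBTB16 were read beside them. Of 5 other GATA genes, 2 were tested and 0 were called in either direction on either day. GATA4 had 13.1 CPM in BEFs, 9.76 CPM on day 3 and 9.83 CPM on day 6 (log2 fold changes -0.44 and -0.45, edgeR adjusted p = 0.0129 and 0.0103). Of 4 further ZBTB factors related to ZBTB16, 3 were tested and 0 were called. Whether a member differed from its relatives was not tested.

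S100A8 (ncbi_616818) and S100A9 (ncbi_532569) encode the calgranulins, calcium-binding proteins that pair with each other as calprotectin and are best known from neutrophils and inflamed epithelium. Neither had a count in BEFs. S100A8 had 18.7, 8.08 and 8.92 CPM in CiADCs-3d and 6.93, 6.27 and 6.44 CPM in CiADCs-6d. S100A9 had 23.7, 10.8 and 13.3 CPM in CiADCs-3d and 8.01, 9.80 and 9.98 CPM in CiADCs-6d. In both genes all samples of day 3 exceeded those of day 6, and CiADCs-3d replicate 1 stood above the others. S100A8 was at least 91-fold higher on day 3 and at least 49.99-fold higher on day 6, and S100A9 at least 121.8-fold and 70.7-fold. Without the CiADCs samples numbered 1, the ratio of day 3 to day 6 went from 1.82 to 1.34 for S100A8 and from 1.72 to 1.22 for S100A9. S100A8 fell outside the rule when CiADCs-3d replicate 2 or CiADCs-3d replicate 3 alone was left out.

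Between S100A8 and S100A9 in the RefSeq gene order lies S100A12, the third calgranulin. It met the limits on counts and was left out by the ratio of 2.65 between the days. It had 0.0153 CPM in BEFs, 31.6 ± 10.1 CPM on day 3 and 11.9 ± 0.939 CPM on day 6. The next gene beyond S100A9, PGLYRP4, which encodes a peptidoglycan recognition protein, was called higher on both days at 1.6 and 1.1 CPM, from no count in BEFs. Of the other S100 genes, 14 were tested. On day 3, 9 were called higher and 2 lower, and on day 6, 5 were higher and 2 lower. The shares over all genes tested were 18.2% and 9.94% on day 3, and 21.9% and 13.4% on day 6. S100A12 and S100G, at 0.0153 and 0 CPM in BEFs, were among the higher genes. Both passed the filter only through CiADCs, so their direction was set in advance. S100A1 rose from 51.15 CPM to 625 and 580 CPM, while S100A10 fell from 248 CPM to 24.14 and 14.5 CPM and S100A11 from 540 CPM to 239 and 157 CPM.

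BCL2A1 (ncbi_282151), an inhibitor of apoptosis that is induced by NF-kappaB, had 1 count in BEFs. The samples of day 3 had 10.6, 9.05 and 11.9 CPM and those of day 6 had 8.48, 5.32 and 4.83 CPM, without overlap. Its ratio of 1.69 between day 3 and day 6 became 2.07 without the CiADCs samples numbered 1, and also fell outside the rule without CiADCs-6d replicate 1 alone. Among its anti-apoptotic relatives, 4 were tested. On day 3, 0 were called higher and 1 lower, and on day 6, 2 were higher and 1 lower. The lower gene was BCL2, whose log2 fold change was -1.86 on day 3 and -1.465 on day 6 (edgeR adjusted p = 0.00228 and 0.00675). The higher ones were MCL1, at 133 CPM in BEFs and 315 CPM on day 6, and BCL2L1, at 60.1 and 146 CPM.

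ZC3H12D (ncbi_615863) belongs to a family of ribonucleases that degrade mRNAs of inflammatory genes. It had no count in BEFs. In CiADCs-3d it had 8.10, 22.2 and 14.1 CPM and in CiADCs-6d 16.7, 9.28 and 11.6 CPM, at least 112.9-fold and 95.8-fold higher. The days overlapped, and the samples of day 3 spanned a wider range than those of day 6. ZC3H12A (regnase-1), present in BEFs at 7.06 ± 1.79 CPM, rose to 76.8 ± 5.68 and 90.6 ± 2.03 CPM (log2 fold changes 3.42 and 3.64, edgeR adjusted p = 3.07e-09 and 1.63e-09). ZC3H12C had 12.2 CPM in BEFs and 15.3 and 15.1 CPM in CiADCs (adjusted p = 0.0872 and 0.12).

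UBD (ncbi_512938), also known as FAT10, encodes a ubiquitin-like protein that is induced by interferon-gamma and TNF and marks proteins for the proteasome. It had the widest spread of the members. The samples had 5.13, 14.9 and 9.98 CPM on day 3 and 19.9, 8.60 and 8.70 CPM on day 6, a range of 3.88-fold. Some of its expected counts were not whole. A near copy that the table also names UBD, LOC504548, had 0.0575 CPM in BEFs and 12.4 and 16.1 CPM in CiADCs and was left out because 1 sample of BEFs had 2 counts. The split of reads between these copies is uncertain.

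Both rows named APOL3 encode apolipoprotein L proteins, of which several are induced by interferons. The row ncbi_531557 had 1 count in BEFs, then 8.16, 12.6 and 10.1 CPM on day 3 and 19.9, 18.7 and 17.4 CPM on day 6. Its days did not overlap, and its ratio of 0.552 was the lowest of the members. The row ncbi_521214 had no count in BEFs and 5.55 ± 1.35 and 4.85 ± 0.922 CPM in CiADCs, with overlap between the days. The table held 12 further rows of this family, of which 8 were tested. On day 3, 7 were called higher and on day 6 all 8, with 0 lower, beside 18.2% and 21.9% higher over all genes tested. LOC616957, LOC788334 and LOC505078, at 0, 0.0866 and 0.134 CPM in BEFs, passed the filter only through CiADCs, so their direction was set in advance. LOC524576 rose from 1.03 ± 0.387 CPM to 178 ± 13.6 and 176 ± 13.4 CPM, and LOC518495, next to ncbi_531557, from 2.66 ± 0.127 CPM to 148 ± 16.2 and 130 ± 5.15 CPM. Reads of such similar genes may have been split between rows, so single levels are uncertain.

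Some markers of blood and immune cells were higher in CiADCs beside these genes, while 9 of 14 stayed under 1 CPM in every sample. The 14 markers summed to between 1.75 and 2.79 CPM in BEFs, between 85 and 211 CPM in CiADCs-3d and between 141 and 218 CPM in CiADCs-6d. Of 5 tested, 5 were higher on both days, which were CD74, CD14, CD163, CD68 and CSF1R. In BEFs, CD74, CD163 and CSF1R had 0.0859, 0.0726 and 0.116 CPM, and CD14 and CD68 had 0.648 and 0.588 CPM. All 5 passed the filter on low counts only through CiADCs, so their direction was set in advance. Over all genes tested, 30.9% were higher on day 3 and 35.6% on day 6 by adjusted p alone. CD74, the invariant chain of MHC class II, had 92.2 and 79.1 CPM on the 2 days and CD14 had 42.25 and 62.5 CPM. FCER1G, which did not pass the filter, had 0.586 CPM in BEFs and 0.138 and 0.101 CPM in CiADCs. PTPRC, the pan-leukocyte marker CD45, had no count in any sample, and neither had TYROBP or HBB.

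MT3 (ncbi_613320), a metallothionein that binds zinc and copper and is best known from brain, had no count in BEFs. It had 6.70, 6.50 and 3.80 CPM on day 3 and 9.98, 7.26 and 7.72 CPM on day 6, and the samples of day 6 all lay above those of day 3. Of the other metallothioneins, 4 were tested and 4 were called higher on both days, beside 18.2% and 21.9% of all genes tested. MT1A, LOC613358 and LOC768319, at 0.144, 0.0728 and 0.187 CPM in BEFs, passed the filter only through CiADCs, so their direction was set in advance. MT2A, next to MT3, rose from 22.5 ± 4.62 CPM to 161 ± 5.43 and 120 ± 61.2 CPM. LOC613358, which the table names MT1C, rose from 0.0728 CPM to 38.5 and 48.15 CPM. MT4, on the other side of MT3, had no count in any sample. Metallothionein genes are short and alike, so the split of reads between them is uncertain.

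TF (ncbi_280705) encodes transferrin, the iron carrier of plasma that is made mainly by the liver. No count was seen in BEFs. Its samples had 6.92, 5.63 and 4.99 CPM on day 3 and 10.7, 7.35 and 5.85 CPM on day 6, at least 44.6-fold and 60.9-fold higher. The days overlapped. Without TF, the 19 liver and acute phase markers summed to between 50.6 and 54.4 CPM in BEFs, between 1580 and 2525 CPM on day 3 and between 1719 and 2662 CPM on day 6. Most of this sum came from HP, CP and SAA3, acute phase proteins that reached 1058, 571 and 385 CPM on day 3. Of 8 tested, TF among them, 5 were higher and 2 lower on day 3, and 4 were higher and 2 lower on day 6. The lower ones were APOA1, which fell from 39.2 to 14.8 and 4.9 CPM, and TTR, which fell from 1.89 to 0.61 and 0.226 CPM. ALB, the gene of albumin, stayed at 0.218 and 0.134 CPM, FGA, FGG, LBP and APOH had no count in any sample, and 13 of the 19 were under 1 CPM in every sample.

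The transport genes were SLCO2B1 (ncbi_317704), which carries organic anions such as steroid sulphates and thyroid hormones, and SLC38A4 (ncbi_527476), a carrier of neutral amino acids. SLCO2B1 had 11.5, 25.5 and 17.5 CPM on day 3 and 26.8, 16.3 and 17.2 CPM on day 6. SLC38A4 had 13.1, 9.38 and 11.9 CPM on day 3 and 16.4, 18.3 and 15.7 CPM on day 6. The days overlapped for SLCO2B1 and not for SLC38A4. Of the other SLCO genes, 5 were tested. On each day 2 were called higher, and 0 were lower on day 3 and 2 on day 6, which were SLCO1C1 and SLCO5A1. Among the higher was SLCO4A1, which rose from 8.04 ± 1.78 CPM to 85.1 ± 31.6 and 102 ± 6.13 CPM. Of 9 other SLC38 genes tested, 0 were called higher and 1 lower on day 3, and 2 were higher and 2 lower on day 6. SLC38A5 was the lower one on day 3 (log2 fold change -2.19) and, with SLC38A6, on day 6 (-2.06). SLC38A2, which lies next to SLC38A4, had 367 CPM in BEFs, 258 CPM on day 3 and 573 CPM on day 6.

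MAOB (ncbi_338445), a mitochondrial oxidase of amines, and FBP2 (ncbi_514066), the muscle form of fructose-1,6-bisphosphatase, were the metabolic members. MAOB had 4.21, 5.197 and 3.76 CPM on day 3 and 3.75, 3.77 and 4.08 CPM on day 6. FBP2 had 6.65, 6.69 and 8.83 CPM on day 3 and 6.14, 5.56 and 4.45 CPM on day 6, and its days did not overlap, with day 3 higher. Each has its closest relative beside it in the genome, and both relatives rose. MAOA, next to MAOB, went from 1.23 ± 0.232 CPM to 20.7 ± 3.52 and 24 ± 0.629 CPM (log2 fold changes 4.05 and 4.24, edgeR adjusted p = 3.4e-09 and 1.93e-09). FBP1, next to FBP2, went from 0.589 ± 0.284 CPM to 23.9 ± 6.58 and 19.9 ± 8.43 CPM (log2 fold changes 5.33 and 5.04). FBP1 passed the filter on low counts only through CiADCs, so its direction was set in advance.

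The remaining members were RASSF10 (ncbi_514824), a Ras association domain protein, FGD5 (ncbi_539766), an exchange factor for CDC42 that is known from endothelium, and SYT15 (ncbi_529391), a synaptotagmin that RefSeq names SYT15B. RASSF10 had no count in BEFs, 7.43 ± 1.52 CPM on day 3 and 11 ± 1.38 CPM on day 6, without overlap. FGD5 had 3.30, 9.10 and 4.61 CPM on day 3 and 10.3, 7.91 and 8.48 CPM on day 6. SYT15 had 2.92, 7.56 and 3.64 CPM on day 3 and 8.81, 5.37 and 7.30 CPM on day 6. For FGD5 and SYT15, CiADCs-3d replicate 2 lay among the samples of day 6. GPRIN2, next to SYT15, rose from 0.0277 CPM to 13.9 and 11.8 CPM.

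Endothelial and neuronal markers were read beside FGD5 and SYT15. Of 8 endothelial markers tested, 4 were higher and 2 lower on day 3, and 4 were higher and 3 lower on day 6. EGFL7 and ERG were lower on both days and PECAM1 on day 6. The 12 summed to between 73.5 and 83 CPM in BEFs, between 356 and 499 CPM on day 3 and between 230 and 355 CPM on day 6. Most of the sum on day 3 was VWF, at 367 CPM, while CDH5 had 0.018 CPM on day 3 and EMCN had no count. The 25 neuronal markers summed to between 285 and 299 CPM in BEFs, between 351 and 362 CPM on day 3 and between 303 and 373 CPM on day 6. Of 12 tested, 4 were higher and 5 lower on day 3, and 6 were higher and 5 lower on day 6. STMN2, GAP43, NEFM and ELAVL4 had no count in any sample. The part of these cell types in the result was not tested.

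The remaining lists were read in the same way, by adjusted p alone. Of 13 epithelial markers tested, 7 were higher on each day and 3 and 2 were lower. Of 8 bone and cartilage markers, 4 and 5 were higher and 3 lower on each day. Of 6 muscle markers, 1 and 2 were higher and 1 lower on each day. Of 4 Schwann cell and melanocyte markers, 1 was higher and 0 lower on day 3, and 2 were higher and 1 lower on day 6. Of 16 ion channel genes, 4 were higher and 6 lower on each day. Of 252 genes on the 13 lists, 80 were as silent in BEFs as the members, and 2 of these, CYP26A1 and TF, became members.

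The change between the days within members was small by the choice of genes. The ratio of day 3 to day 6 ran from 0.552 to 1.82. The median log2 difference, day 6 minus day 3, was 0.21. By the call rule 0 members were higher and 0 lower on day 6 than on day 3, beside 4.09% and 3.22% of all genes tested, and nothing is read from this because the rule used the ratio. In 6 members all samples of day 6 exceeded those of day 3, which were MT3, GATA6, SLC38A4, APOL3 (ncbi_531557), RASSF10 and ZBTB16. The reverse held in 4, which were S100A8, S100A9, BCL2A1 and FBP2. Over all genes tested, 20.3% had no overlap with day 6 higher and 16.7% with day 3 higher. The other 10 members overlapped between the days.

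**Figure D2:**
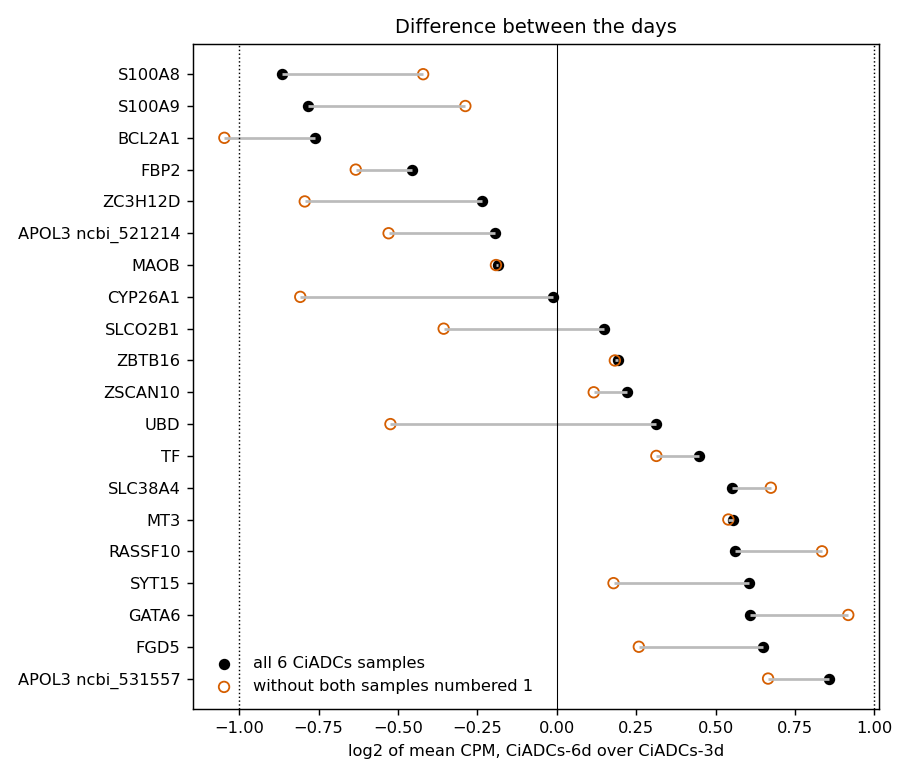
Difference between the days for each member, as log2 of mean CPM in CiADCs-6d over CiADCs-3d. Filled points use all 6 CiADCs samples, open points leave out the samples numbered 1 on both days, and dotted lines mark the limits of the choice at -1 and 1. BCL2A1 moves outside the limit, and UBD and SLCO2B1 change sign.

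The spread between samples exceeded counting noise in most members. In CiADCs-3d, 19 of 20 members had at least 2 times the variance that counting gives, and in CiADCs-6d 14 of 20. The median coefficient of variation was 26.4% on day 3 and 14.9% on day 6, where counting alone would give 2.49% to 10.4% and 2.53% to 11.3%. ZBTB16 was the one member below counting noise on both days.

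The samples numbered 1 stood apart in many members. CiADCs-3d replicate 1 was the lowest of its day in 10 members, as it was in 36.8% of the genes tested, and CiADCs-6d replicate 1 the highest of its day in 14, beside 41.1%. In 9 members both held, which were CYP26A1, UBD, FBP2, SLCO2B1, both APOL3 rows, ZC3H12D, SYT15 and FGD5. Over all genes tested this pattern was seen in 22.9%. The opposite pattern, highest on day 3 and lowest on day 6, was seen in S100A9, GATA6 and RASSF10, against 24.2% of genes. Leaving out these samples on both days moved the ratio of CYP26A1 from 1.01 to 1.75, that of UBD from 0.806 to 1.44 and that of ZC3H12D from 1.18 to 1.73. For ZBTB16, MAOB and MT3 it moved from 0.875 to 0.881, from 1.14 to 1.14 and from 0.681 to 0.688.

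**Figure D3:**
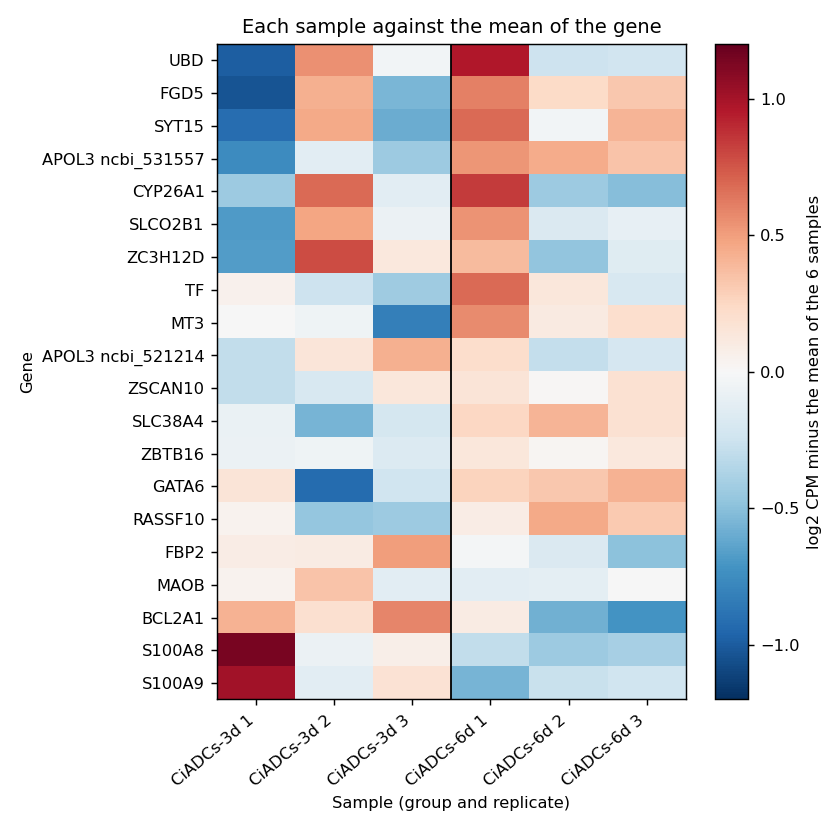
Each CiADCs sample against the mean of the gene, as log2 CPM minus the mean of the 6 samples, with red above and blue below, the days separated by a line, and genes ordered by the difference between the samples numbered 1. In the upper rows CiADCs-3d 1 is blue and CiADCs-6d 1 is red, and in S100A8 and S100A9 the colours are reversed.

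Genes that lie beside members in the RefSeq order of assembly ARS-UCD2.0 were read next. There were 38 such protein-coding genes in the table that were not members, and 27 were tested. On day 3, 14 were called higher and 1 lower, with a median log2 fold change of 1.32. The numbers on day 6 were 14 higher and 2 lower, and the median was 1.03. Over all genes tested, 18.2% were higher on day 3 and 21.9% on day 6, with medians of 0.0060 and 0.0328. Neither median changed with PGLYRP4 at its bound. S100A12, GPRIN2, PGLYRP4 and FBP1, at 0.0153, 0.0277, 0 and 0.589 CPM in BEFs, passed the filter only through CiADCs, so their direction was set in advance. Neighbours near 0 in all groups were not tested and are not in these counts. Several of these neighbours are relatives of the member, as S100A12, FBP1, MAOA, MT2A and the APOL rows are. Others are not related to the member. TAB2 next to ZC3H12D went from 55.5 to 165 CPM on day 3, TEAD1 next to RASSF10 from 78 to 198 CPM and AMIGO2 next to SLC38A4 from 10.3 to 31.6 CPM. Still others did not rise. RBBP8 and MIB1, on either side of GATA6, had log2 fold changes of -0.69 and -0.40 on day 3, and MYOF, next to CYP26A1, fell on day 6 by 1.27. NDP, on the other side of MAOB from MAOA, fell by 1.11 and 1.91. HTR3A and NNMT beside ZBTB16 and OR2AT2 and TPBGL beside SLCO2B1 had group means under 0.3 CPM.

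**Figure D4:**
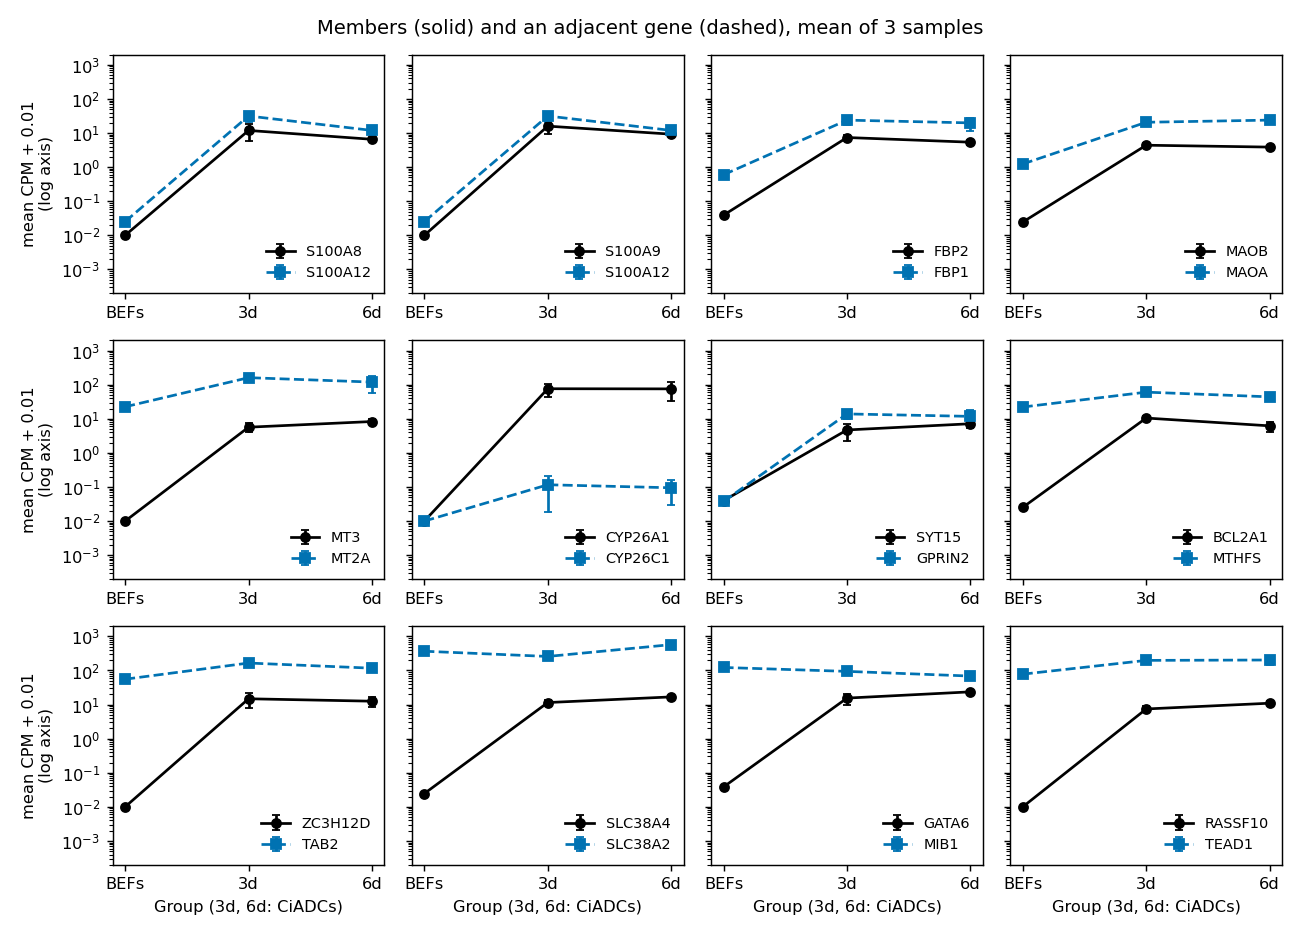
Mean CPM + 0.01 on a log axis in BEFs, CiADCs-3d and CiADCs-6d for 12 members (solid) and an adjacent gene (dashed), each the mean of 3 samples with bars of 1 SD in CiADCs. CPM is not scaled to length, so the change along a line and not the height of lines can be compared. S100A12, GPRIN2, FBP1 and MAOA rise with the member, while CYP26C1 goes from 0 to 0.106 and 0.085 CPM and SLC38A2 and MIB1 are high in all 3 groups.

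Relatives were read over 17 families with 120 further genes, a choice made after the members were known. Of these, 85 were tested. On day 3, 32 were called higher and 8 lower, and on day 6, 38 were higher and 13 lower. Over all genes tested, 18.2% were higher and 9.94% lower on day 3, and 21.9% and 13.4% on day 6. Of 8 RASSF genes tested, 1 was higher and 0 lower on day 3, and 4 were higher and 1 lower on day 6. Of 9 synaptotagmins, 2 were higher and 1 lower on day 3, and 3 were higher and 2 lower on day 6.

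Annotation in the table was sparse. A KEGG pathway was given for 10 members and a GO process for 12. Of those 12, 5 carried the term apoptotic process, which were S100A8, S100A9, BCL2A1, GATA6 and ZBTB16, and 3.68% of all annotated genes carried it. MT3 and TF shared transition metal ion transport, and S100A8 and S100A9 the IL-17 signalling pathway.

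The edges of the choice were narrow in places. The lowest count of any member in CiADCs was 54 for SYT15, 61 for FGD5 and 71 for ZSCAN10, and the nearest genes outside were CSF3 with 49, MAL2 with 47 and MAGEB4 with 40.9. LGALS9, at a ratio of 0.494, lay just outside the lower limit, and PLEKHS1, at 2.19, outside the upper. TRHR, PGF, NCF1 and LOC504548 had 2 counts in a BEFs sample and met all other limits. A limit of 0 counts in BEFs left 9 genes, and a limit of 3 gave 47.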

How the data were processed

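Gene expression was measured by RNA sequencing in 9 samples. The expected counts deposited by the authors are estimated reads per gene, not normalized, and the FPKM values deposited by the authors were scaled to gene length and library size. The submitters' processing notes list, with no roles, RSEM, StringTie 1.3.1, HISAT2 2.2.4 and fastp 0.18.0, and the labels a Ribo-Zero kit. The methods of the study name TopHat and HTSeq instead. They name oligo(dT) beads for eukaryotic mRNA and the Ribo-Zero kit for prokaryotic mRNA. The genome build is not given in the sources used here, so no coordinates are printed, and promoter and protein sequences were not analysed here.

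CPM was the count over the library total. Members were chosen from the counts as deposited. The members, gene lists, families and tests were chosen with earlier results of these data known. All 20 members were matched to RefSeq by gene ID, which gave gene order. Counts were rounded, filtered with filterByExpr of edgeR 4.0.16 (minimum count 10, minimum total 15, 14020 genes kept), scaled by TMM and fitted with a quasi-likelihood model to all 9 samples, with no block. The call rule was a log2 fold change of 1 or more in size with an adjusted p under 0.05, and for list genes the adjusted p alone. A gene near 0 in BEFs passed the filter only through CiADCs. Counts of higher genes among lists, relatives and neighbours include such genes, whose direction was set in advance. The pipeline was tested on simulated data.

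Folds against 0 counts used a floor of 3 counts per library, and ratios against 1 or 2 counts have an exact interval at a confidence level of 0.95. All members were named. The rule for other genes was up to 4 per list with the largest changes and at least 10 CPM, and relatives. Not all that it allows are printed, and neighbours and further list genes, such as ADIPOQ, CD68, CSF1R, ALB and those at 0, were named after their values were seen. Alternatives were DESeq2 1.42.0, limma 3.58.1 on log2(FPKM + 1), other scalings and limits, no filter, a replicate block and samples left out. R 4.3.3 and Python 3.11.15 were used.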

Additional observations from a re-analysis of the deposited data

Results flagged for a closer look

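Some genes beside members had a log2 fold change of 1 or more in size between the days. Over all genes tested, 4.09% were called higher and 3.22% lower on day 6 than on day 3. S100A12, between S100A8 and S100A9, had a log2 fold change of -1.42 from day 3 to day 6 (standard error 0.20), and of -1.13 without the CiADCs samples numbered 1. The ratio of the days kept S100A12 out of the members, so no test of this difference is read. SLC38A2, next to SLC38A4, had a log2 fold change of 1.14 (edgeR adjusted p = 0.000309, standard error 0.14), and 1.27 without those samples. RAB6B, next to TF, had 1.2 (edgeR adjusted p = 0.0188, standard error 0.33). Groups of 3 samples were too small for the outlier test.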

How the results depend on the processing

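The number of members was 9 with no count allowed in BEFs, 47 with up to 3, 10 with at least 100 counts in CiADCs and 13 with a ratio from 0.67 to 1.5. It was 26 with at least 30 counts, 28 without a limit on the ratio, 20 with TMM-scaled CPM or FPKM and 21 with DESeq2 size factors, and from 17 to 26 with a sample left out. Leaving out CiADCs-3d replicate 2 removed FGD5, S100A8, SYT15 and APOL3 (ncbi_531557) from the members. With limma on log2(FPKM + 1), 2367 genes were called on day 3, 3068 on day 6 and 325 between the days, against 3945, 4949 and 1025. Between the days, 1967 were called without the CiADCs samples numbered 1. With a sample left out, calls ran from 3889 to 4063 on day 3, from 4883 to 5241 on day 6 and from 703 to 1492 between the days, and list genes higher from 61 to 70 and from 64 to 71. The 10 members without overlap between the days stayed 10 in TMM-scaled CPM and in FPKM.

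Same-numbered samples did not deviate together (r = -0.353, -0.188 and -0.127 for CiADCs-3d and CiADCs-6d), so the numbers were not taken as pairs. CiADCs-3d 1 had r = 0.256 and 0.2 with CiADCs-6d 2 and 3, and CiADCs-6d 1 had 0.241 and 0.193 with CiADCs-3d 2 and 3. Deviations were taken from the group mean, so these values depend on each other. Calls between the days were 1365 without CiADCs-3d 1 alone and 1492 without CiADCs-6d 1 alone. What set these 2 samples apart was not tested. The replicate block gave 3889, 4915 and 907 calls and 62 and 65 list genes.

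Of single genes that are not members, 939 values kept direction and call, 10 gained a call and 5 lost it. Differences between the days that were not called changed sign in 6. With a sample left out, the log2 difference of ZC3H12C ran from -0.141 to 0.0354, that of GATA4 from -0.0927 to 0.024 and that of LOC504548 from -0.0793 to 1.01. GATA4 had 0.0118 with total counts, and LOC504548 -0.379 without the CiADCs samples numbered 1. The cause was not tested. Depth limits what silent means, since 3 counts are 0.125 to 0.138 CPM in BEFs.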

Other observations

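The 8 genes that were silent in BEFs and on in CiADCs but outside the limits on the ratio were of mixed kinds. CXCL13, a chemokine for B cells, had 17.7 ± 4.96 CPM on day 3 and 4.86 ± 1.67 CPM on day 6, and GSTA1, a glutathione transferase, 34.9 ± 14 and 14.7 ± 12.1 CPM. S1PR5, a receptor for sphingosine phosphate, had 4.03 ± 1.74 CPM on day 3 and 12.1 ± 4.1 CPM on day 6, and VSNL1, a neuronal calcium sensor, 4.59 ± 0.547 and 12 ± 1.04 CPM. LGALS9, the gene of galectin-9, had 6.96 ± 2.14 and 14.1 ± 1.75 CPM. The ratio chose these genes, so the difference between the days was not tested.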
